A study of Mus musculus with 8 samples.

Results

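Mitosis is driven by the cyclin-dependent kinase CDK1, which is switched on by its cyclin B partners at the end of G2 and switched off when the anaphase-promoting complex marks cyclin B for destruction. Between these steps the chromosomes condense, kinetochores attach them to the spindle under the watch of the spindle assembly checkpoint, and the cell is cleaved. The transcripts of these proteins peak in G2 and M phase, because the MuvB complex with B-MYB and FOXM1, together with NF-Y, turns the genes on late in the cycle, and repressive MuvB assemblies keep them low in resting cells. The expression of 40 such genes was examined here in cultured mouse tendon stem cells (TSCs) out of the 19301 genes of the deposited table. They were taken by symbol from a list of known G2 and M phase genes, and all 40 symbols were found.

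RNA was taken from TSCs after 4 days in one of 2 media, with 4 biological replicates each. The high fat, high glucose medium (HFHG) held high glucose with the saturated fatty acid palmitic acid at 300 µM, and the low glucose control medium held 5.5 mM glucose with the solvent DMSO and without palmitic acid. By the study's methods, TSCs were primary cells grown from collagenase-digested patellar tendon, the mice were C57BL/6J, and no sorting step was described. No cell in either group carried an engineered allele as far as the labels state, and the age and sex of the donor mice of these cultures were not given. Because the media differed in glucose and palmitic acid together, the effects of the single components cannot be told apart. Whether HFHG also held the solvent was not stated. The labels do not say whether replicates came from separate animals, so p-values measure the spread between these cultures.

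Expression was given as FPKM (fragments scaled for gene length and sequencing depth). The whole reads behind these values could be recovered, 34231150 to 37290483 per library over the genes of the table. In a principal component analysis the first component (81.0% of the variance) separated the media, and low glucose replicate 4 lay apart from the other 7 libraries on the second (4.18%). Marker genes were compared with the label of the cells. The collagen gene Col1a1 (202 to 541 FPKM) and the tendon proteoglycan gene Dcn (589 to 631 FPKM) were abundant, while the tendon factor Scx (0.983 to 2.88 FPKM) and the tendon membrane protein gene Tnmd (0.220 to 1.19 FPKM) were low. Of the 12 tendon markers 9 were called higher and 2 lower in HFHG (91.7% called, beside 64.8% of all genes tested). Their summed level was 2728 to 2777 FPKM in HFHG and 1782 to 1808 in low glucose. All 8 macrophage markers were detected and tested, led by Lyz2 (1615 to 1811 FPKM), with Adgre1 at 25.3 to 39.3 FPKM and the leukocyte gene Ptprc at 1.71 to 2.44 FPKM. Their summed level was 1750 to 1799 FPKM in HFHG and 1909 to 1994 in low glucose. Of the 8, 6 were called lower in HFHG and 1 higher (87.5% called). The part of such cells in the mitotic values was not tested. The 6 endothelial markers summed to 1.63 to 1.74 FPKM in HFHG and 1.88 to 2.23 in low glucose. The 5 muscle markers in the table summed to 0.736 to 1.82 and 3.52 to 4.36 FPKM, with Myod1 at 0 in every HFHG library.

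The mitotic genes did not move as one group. Of the 27 that were tested, 7 rose in HFHG (Spc25, Bub1b, Cenpa, Cdk1, Incenp, Racgap1 and Pttg1), 2 fell (Ccnb1 and Foxm1) and 18 did not pass the test. The 9 called were 33.3% of the 27, beside 64.8% of all genes tested (30.8% lower and 34% higher in HFHG). One of the 7, Bub1b, reached the filter for testing only through its HFHG libraries, so its call adds no support. The 2 that fell encode cyclin B1, the activator of CDK1, and a transcription factor of the G2 and M phase genes. The test was limma on log2(FPKM + 0.1) of genes with at least 0.5 FPKM in at least 4 of the 8 libraries, with the Benjamini-Hochberg adjustment over all 11710 such genes and an adjusted p-value below 0.05 as the threshold. Fold changes on this scale understate the change of genes near the pseudocount of 0.1. The other 13 genes lay below the filter and are described by their values.

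Among the 3644 tested genes with a mean FPKM in the same range as the 27 (0.447 to 3.79), 51.7% were called, 17.5% lower and 34.2% higher. The standard errors of the mitotic genes were larger, with a median of 0.15 on the log2 scale beside 0.11 for the genes of the same range and 0.060 for all genes tested. The median log2 fold change of the 27 was 0.086, and 0.017 for all genes tested, and 16 of the 27 lay above 0. None passed a fold of 2 in either direction in limma, at an unadjusted or an adjusted p-value, and voom on the recovered reads called none past it either, whereas 1.63% of all genes tested fell and 3.68% rose past that fold. On the log2(FPKM + 0.1) scale, all 27 of the 95% intervals lay inside a 2-fold change, from -0.75 at the lowest bound to 0.93 at the highest. In unfiltered voom the interval of Bub1b, alone among the 27, crossed a 2-fold change (0.21 to 1.11 in log2). A change of that size is therefore not excluded for Bub1b. Values of the groups did not overlap for 6 of the 27, against 59.2% of all genes tested. The split of the calls depended on the scaling: after quantile normalization, 6 genes were lower (Ccnb1, Cdca8, Ect2, Foxm1, Nuf2 and Top2a) and 4 were higher (Cdk1, Incenp, Racgap1 and Spc25). Without low glucose replicate 4, 3 were lower (Ccnb1, Foxm1 and Top2a) and 7 higher.

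All 40 transcripts were scarce in both media. Their mean over the 8 libraries ran from 0.113 FPKM (Cenpf) to 3.79 FPKM (Incenp) with a median of 0.937, which placed them between percentiles 30.5 and 58.3 of all genes in the table, and 22 of the 40 were under 1 FPKM. The median of the tested genes at large was 8.04 FPKM. Between 13 and 564 reads stood behind a single value. Summed over the 40 genes, the level was 51.3 to 52 FPKM in HFHG and 44.5 to 49.5 in low glucose. This was 0.0146% to 0.0149% and 0.0128% to 0.0141% of the reads on genes of the table. Within a library, the median of the 40 genes was 0.794 to 0.856 FPKM in HFHG and 0.720 to 0.967 in low glucose. These medians overlapped, and a sum weighs the most abundant genes most. RNA of a whole culture does not tell the share of cells in G2 or M phase from the transcript level per such cell.

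**Figure D1:**
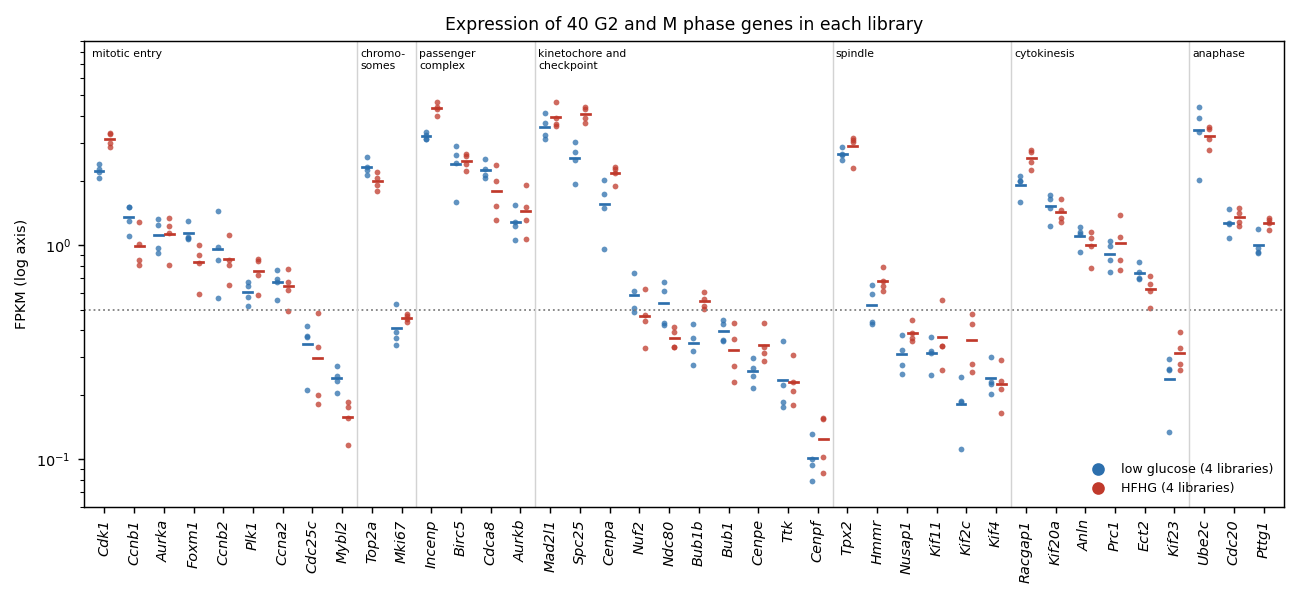
FPKM (log axis) of the 40 genes in the 4 low glucose (blue) and 4 HFHG (red) libraries, grouped by role, with a bar at each mean and a dotted line at the filter of 0.5 FPKM. No value exceeded 4.65 FPKM, and the blue and red points overlapped for all but 9 genes.

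The promoters of the genes show the sequences by which the family is known to be controlled. RefSeq (GRCm38.p6) gave windows from 250 bases before to 50 bases after the start for 33 of the 40 genes, 35 windows in all, and none for Ccna2, Aurkb, Kif20a, Tpx2, Incenp, Foxm1 and Cdc25c. TTTGAA, the letters of the cell cycle genes homology region (CHR) to which MuvB binds, was found on either strand in 26 of the 35 windows (74.3%) and in 17.9% of the 32851 windows of all genes. Close to the start, from 40 bases before to 50 after, these letters stood in 68.6% of the mitotic windows and 4.39% of all. CCAAT, the letters of the NF-Y box, was also found in 74.3%, beside 37.4% of all windows, and at least 2 copies stood in 51.4% beside 11.7%. Both motifs together were in 65.7% and 6.95%. These motifs can share 1 end letter where they meet. By gene, 24 held TTTGAA, 24 held CCAAT, 21 held both and 6 held neither (Birc5, Nusap1, Nuf2, Mad2l1, Pttg1 and Mybl2). Only these exact letters were searched, so a window without them may still hold a variant of either motif. At some genes, among them Pttg1, Kif2c, Kif4 and Cdca8, the RefSeq window lies wholly inside the gene as annotated by GENCODE. Sequence before the GENCODE start was then not searched. A match describes the letters only, and binding was not measured.

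The 7 called genes that have a window are printed from 120 bases before to 30 after the start, on the gene's strand from 5′ to 3′, because genes that rose and a gene that fell can then be read side by side. Capitals mark TTTGAA and CCAAT, the second written ATTGG where it lies on the other strand.
Cdk1 (chr10:69352883-69353032, minus strand): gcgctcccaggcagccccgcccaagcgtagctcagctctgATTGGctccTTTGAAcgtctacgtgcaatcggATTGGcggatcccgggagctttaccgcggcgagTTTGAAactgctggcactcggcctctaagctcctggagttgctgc
Ccnb1 (chr13:100786457-100786606, minus strand): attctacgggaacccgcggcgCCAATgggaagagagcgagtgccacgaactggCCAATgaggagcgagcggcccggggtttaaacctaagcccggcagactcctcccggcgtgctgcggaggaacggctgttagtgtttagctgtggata
Cenpa (chr5:30666766-30666915, plus strand): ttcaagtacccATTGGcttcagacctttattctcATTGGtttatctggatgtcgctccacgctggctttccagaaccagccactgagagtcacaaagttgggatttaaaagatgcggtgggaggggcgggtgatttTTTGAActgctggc
Spc25 (chr2:69206184-69206333, minus strand): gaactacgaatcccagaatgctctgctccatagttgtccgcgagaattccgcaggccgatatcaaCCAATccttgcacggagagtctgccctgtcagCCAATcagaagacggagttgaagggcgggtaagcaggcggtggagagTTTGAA
Bub1b (chr2:118598091-118598240, plus strand): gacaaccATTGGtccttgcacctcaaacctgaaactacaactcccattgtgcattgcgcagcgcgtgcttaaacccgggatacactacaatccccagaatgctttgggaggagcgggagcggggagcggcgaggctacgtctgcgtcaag
Racgap1 (chr15:99651627-99651776, minus strand): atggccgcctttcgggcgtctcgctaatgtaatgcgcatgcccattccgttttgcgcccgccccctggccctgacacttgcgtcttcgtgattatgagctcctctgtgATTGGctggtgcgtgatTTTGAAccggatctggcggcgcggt
Pttg1 (chr11:43425952-43426101, minus strand): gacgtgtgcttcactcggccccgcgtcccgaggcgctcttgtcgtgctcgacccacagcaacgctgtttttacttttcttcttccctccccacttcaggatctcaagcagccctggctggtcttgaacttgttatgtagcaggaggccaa
The Cdk1 stretch held 2 copies of each motif, and its second TTTGAA began 15 bases before the start. Those of Spc25 and Cenpa had 2 CCAAT boxes and 1 TTTGAA, while Racgap1 had 1 of each. Ccnb1, which fell, had 2 CCAAT boxes and no TTTGAA in its whole window. Bub1b had 1 CCAAT box here, and its TTTGAA began at base 41 after the start, beyond the printed end. Pttg1 had neither. CCAAT boxes thus stood in Ccnb1, the only printed gene that fell, and in Cdk1, Spc25, Cenpa, Racgap1 and Bub1b, which rose. Foxm1, which also fell, had no window, and 37.4% of all windows held CCAAT.

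Mitotic entry was examined in 9 genes, of which 7 were tested. Cdk1 (NCBI gene 12534, GRCm38 chr10:69335146-69352938, minus strand), the kinase that starts mitosis, was 2.87, 3.35, 3.3 and 3.0 FPKM in HFHG and 2.40, 2.18, 2.05 and 2.25 in low glucose. All 4 HFHG libraries lay above all 4 low glucose libraries, on 316 to 517 reads per library, and Cdk1 rose 1.41-fold (log2 fold change 0.48, SE 0.079, adjusted p = 0.000177), a call that held in all 19 alternatives. Ccnb1 (NCBI gene 268697, chr13:100778650-100786570, minus strand), which encodes the cyclin B1 partner of CDK1, was 0.809, 1.01, 0.852 and 1.29 FPKM in HFHG and 1.30, 1.5, 1.51 and 1.1 in low glucose. HFHG replicate 4 lay within the low glucose range and the other HFHG libraries below it, and Ccnb1 fell on 70 to 126 reads per library (log2 fold change -0.42, SE 0.15, adjusted p = 0.0238). This call was lost without HFHG replicate 1, HFHG replicate 3, low glucose replicate 2 or low glucose replicate 3 (log2 fold changes -0.34, -0.37, -0.37 and -0.37), and with no filter on low values, where the adjusted p-value was 0.0580. The annotation holds a pseudogene Ccnb1-ps, so reads could be shared between near-identical copies. In the HFHG libraries the FPKM ratio of Cdk1 to Ccnb1 was 3.55, 3.3, 3.88 and 2.33, in those of low glucose it was 1.85, 1.46, 1.36 and 2.04, and the media did not overlap. This ratio and those below were chosen after the values had been seen and were not tested.

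Foxm1 (NCBI gene 14235, chr6:128362967-128376146, plus strand), the forkhead activator of the G2 and M phase genes, was 0.901, 0.83, 1.01 and 0.589 FPKM in HFHG and 1.30, 1.09, 1.07 and 1.08 in low glucose. The groups did not overlap, with low glucose replicate 1 high and HFHG replicate 4 low, and Foxm1 fell (log2 fold change -0.42, SE 0.15, adjusted p = 0.0229). The call was lost without HFHG replicate 4 (log2 fold change -0.29) or low glucose replicate 1 (-0.36), and with no filter on low values (adjusted p = 0.0543), and exons of Tex52 and Gm44596 overlap Foxm1 on its strand. Mybl2, which encodes B-MYB, the partner of MuvB in activation, was below the filter at 0.156, 0.116, 0.175 and 0.186 FPKM in HFHG and 0.205, 0.274, 0.232 and 0.245 in low glucose. It was lower in every HFHG library (exact two-sided permutation p = 0.0286, the smallest that 4 against 4 allows), and with no filter on low values it passed in limma (adjusted p = 0.0447) but not in voom on the recovered reads (adjusted p = 0.0960). For Foxm1 the unfiltered voom result did pass (adjusted p = 0.0247).

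The other entry genes overlapped between the media. Ccnb2, the second B-type cyclin, was 0.851, 0.807, 0.649 and 1.12 FPKM in HFHG and 0.851, 0.983, 1.45 and 0.565 in low glucose, and low glucose held both the highest and the lowest value (log2 fold change -0.11, SE 0.23, adjusted p = 0.694). Ccna2, the cyclin of S phase and G2, was 0.777, 0.619, 0.675 and 0.494 FPKM in HFHG and 0.553, 0.767, 0.694 and 0.674 in low glucose (log2 fold change -0.065, SE 0.15, adjusted p = 0.722). Plk1, a kinase that promotes entry and spindle assembly, was 0.725, 0.587, 0.841 and 0.865 FPKM in HFHG and 0.645, 0.672, 0.574 and 0.520 in low glucose, with 3 HFHG libraries above all of low glucose and replicate 2 among them, and did not pass (log2 fold change 0.27, SE 0.14, adjusted p = 0.111) unless HFHG replicate 2 was left out (adjusted p = 0.0367). Aurka, the centrosomal Aurora kinase, was 1.34, 1.14, 0.803 and 1.23 FPKM in HFHG and 0.920, 1.32, 0.966 and 1.24 in low glucose, and the groups had almost the same mean (log2 fold change 0.015, SE 0.16, adjusted p = 0.940). Cdc25c, the phosphatase that activates CDK1, lay below the filter at 0.479, 0.332, 0.199 and 0.182 FPKM in HFHG and 0.373, 0.211, 0.375 and 0.417 in low glucose (exact two-sided permutation p = 0.571). In these 5 genes the spread within a medium was as wide as the difference between media.

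Among the 4 genes of the chromosomal passenger complex, which corrects faulty attachments and directs cleavage, 1 rose. Incenp (NCBI gene 16319, chr19:9872296-9899551, minus strand), the scaffold of the complex and the most abundant of the 40 transcripts, was 4.65, 4.01, 4.4 and 4.33 FPKM in HFHG and 3.38, 3.14, 3.13 and 3.25 in low glucose. The groups were well apart, on 360 to 564 reads per library, and Incenp rose 1.35-fold (log2 fold change 0.42, SE 0.065, adjusted p = 9.68e-05), a call kept in every alternative. Cdca8, which encodes the subunit borealin, was 2.35, 1.30, 1.98 and 1.51 FPKM in HFHG and 2.53, 2.13, 2.26 and 2.06 in low glucose. HFHG replicate 1 lay among the low glucose values and the other 3 below them, and Cdca8 did not pass (log2 fold change -0.34, SE 0.15, adjusted p = 0.0653), though it did after quantile normalization and without HFHG replicate 1 (log2 fold changes -0.46 and -0.48). Birc5, which encodes survivin, was 2.62, 2.67, 2.23 and 2.39 FPKM in HFHG and 1.59, 2.41, 2.90 and 2.63 in low glucose, with the lowest value in low glucose replicate 1 (log2 fold change 0.083, SE 0.15, adjusted p = 0.641). Aurkb, the kinase of the complex, was 1.06, 1.5, 1.91 and 1.32 FPKM in HFHG and 1.23, 1.28, 1.05 and 1.53 in low glucose, with the groups mixed (log2 fold change 0.15, SE 0.16, adjusted p = 0.417). The ratio of Incenp to Cdca8 FPKM ran from 1.97 to 3.08 in HFHG and from 1.34 to 1.58 in low glucose without overlap.

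The kinetochore and checkpoint genes held the largest fold change of the 27 tested genes. Spc25 (NCBI gene 66442, chr2:69193895-69206194, minus strand), a subunit of the NDC80 complex that grips microtubules, was 3.72, 4.33, 4.42 and 3.91 FPKM in HFHG and 2.50, 2.72, 3.03 and 1.94 in low glucose. No library of one medium reached the range of the other, on 136 to 314 reads per library, and Spc25 rose 1.61-fold (log2 fold change 0.68, SE 0.12, adjusted p = 0.000237), a call kept in all 19 alternatives. The other subunits of this complex gave different values. Nuf2 was 0.442, 0.626, 0.470 and 0.331 FPKM in HFHG and 0.611, 0.511, 0.739 and 0.487 in low glucose, with HFHG replicate 2 inside the low glucose range (log2 fold change -0.29, SE 0.18, adjusted p = 0.185), and it passed as lower only after quantile normalization. Ndc80, below the filter, was 0.413, 0.334, 0.391 and 0.336 FPKM in HFHG and 0.609, 0.676, 0.423 and 0.434 in low glucose, so that each HFHG library was under each low glucose library (exact two-sided permutation p = 0.0286). Limma with no filter did not call it (adjusted p = 0.0693). Spc24, the fourth subunit, named after its values had been seen, was 0.623, 0.391, 0.465 and 0.836 FPKM in HFHG and 0.552, 0.581, 0.616 and 0.429 in low glucose (log2 fold change 0.040, SE 0.20, adjusted p = 0.871). The ratio of Spc25 to Nuf2 FPKM was 6.90 to 11.8 in HFHG and 3.98 to 5.33 in low glucose, and that of Spc25 to Ndc80 was 8.99 to 13.0 and 4.03 to 7.17.

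Cenpa (NCBI gene 12615, chr5:30666777-30674830, plus strand), the histone variant that marks centromeres, was 1.89, 2.31, 2.27 and 2.17 FPKM in HFHG and 1.5, 1.73, 2.02 and 0.961 in low glucose. It rose (log2 fold change 0.49, SE 0.17, adjusted p = 0.0245), with low glucose replicate 4 far below its group, and without that library the log2 fold change was 0.29 and still passed (adjusted p = 0.0383). The call was lost without HFHG replicate 2 (adjusted p = 0.0585) or HFHG replicate 3 (0.0544), with no filter (0.0643) and after quantile normalization (0.0716). Bub1b (NCBI gene 12236, chr2:118598211-118641591, plus strand), which encodes the checkpoint protein BUBR1, was 0.502, 0.607, 0.521 and 0.558 FPKM in HFHG and 0.428, 0.367, 0.276 and 0.321 in low glucose. It rose in every HFHG library, on 36 to 79 reads per library (log2 fold change 0.54, SE 0.15, adjusted p = 0.00758), but it entered the test through its HFHG values alone, so its call is no support for a direction, and after quantile normalization the log2 fold change was 0.28 with an adjusted p-value of 0.127. Mad2l1, the inhibitor of CDC20 in the checkpoint, was 3.67, 3.61, 3.91 and 4.65 FPKM in HFHG and 4.16, 3.12, 3.71 and 3.27 in low glucose, and HFHG replicate 4 was the highest (log2 fold change 0.15, SE 0.10, adjusted p = 0.216).

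The remaining checkpoint and kinetochore genes were below the filter. Bub1, the checkpoint kinase, was 0.432, 0.365, 0.230 and 0.271 FPKM in HFHG and 0.430, 0.362, 0.449 and 0.356 in low glucose (exact two-sided permutation p = 0.257). Ttk, which encodes the checkpoint kinase MPS1, was 0.305, 0.179, 0.229 and 0.208 FPKM in HFHG and 0.185, 0.174, 0.357 and 0.222 in low glucose (exact two-sided permutation p = 0.971). Cenpe, a kinesin that carries chromosomes to the spindle equator, was 0.288, 0.315, 0.334 and 0.434 FPKM in HFHG and 0.298, 0.268, 0.246 and 0.216 in low glucose, and only low glucose replicate 1 reached the HFHG range (exact two-sided permutation p = 0.0571). Cenpf, a large protein of the outer kinetochore, had the lowest level of all at 0.155, 0.102, 0.154 and 0.0867 FPKM in HFHG and 0.10, 0.131, 0.0944 and 0.0791 in low glucose (exact two-sided permutation p = 0.257). All 4 genes overlapped between the media, with the higher mean in HFHG for the motor Cenpe and for Cenpf and in low glucose for both kinases.

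Spindle genes gave no call. Tpx2, which activates Aurora A on spindle microtubules, was 3.02, 3.11, 2.29 and 3.15 FPKM in HFHG and 2.64, 2.86, 2.66 and 2.50 in low glucose, and HFHG replicate 3 was the lowest of the 8 (log2 fold change 0.10, SE 0.10, adjusted p = 0.379). Without that library Tpx2 passed as higher in HFHG (log2 fold change 0.21, adjusted p = 0.0333). Hmmr, a microtubule-binding hyaluronan receptor, was 0.607, 0.641, 0.786 and 0.677 FPKM in HFHG and 0.654, 0.428, 0.590 and 0.437 in low glucose, with low glucose replicate 1 inside the HFHG range (log2 fold change 0.32, SE 0.15, adjusted p = 0.0838), and it passed as higher without that library (log2 fold change 0.42, adjusted p = 0.0383). The 4 others lay below the filter. Kif2c, a kinesin that takes microtubules apart, was 0.279, 0.476, 0.255 and 0.427 FPKM in HFHG and 0.187, 0.186, 0.242 and 0.112 in low glucose. Its HFHG values all lay above those of low glucose (exact two-sided permutation p = 0.0286), and with no filter it passed in limma (log2 fold change 0.70, adjusted p = 0.0230) and in voom. Kif11, the kinesin that pushes spindle poles apart, was 0.337, 0.554, 0.338 and 0.260 FPKM in HFHG and 0.247, 0.313, 0.320 and 0.371 in low glucose (exact two-sided permutation p = 0.486). Kif4, a chromosome-bound kinesin, was 0.231, 0.213, 0.291 and 0.164 FPKM in HFHG and 0.202, 0.301, 0.230 and 0.225 in low glucose (exact two-sided permutation p = 0.686). Nusap1, which bundles spindle microtubules, was 0.448, 0.389, 0.355 and 0.368 FPKM in HFHG and 0.382, 0.325, 0.250 and 0.276 in low glucose, with low glucose replicate 1 inside the HFHG range (exact two-sided permutation p = 0.0857).

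Of the 6 cytokinesis genes, 1 rose. Racgap1 (NCBI gene 26934, chr15:99620496-99651656, minus strand), a subunit of centralspindlin that organises the central spindle, was 2.44, 2.24, 2.77 and 2.72 FPKM in HFHG and 1.6, 2.11, 1.98 and 1.98 in low glucose. The groups did not overlap, on 167 to 304 reads per library, and Racgap1 rose 1.33-fold (log2 fold change 0.39, SE 0.10, adjusted p = 0.00436), which held in all 19 alternatives. Kif23, the kinesin subunit of centralspindlin, was below the filter at 0.278, 0.392, 0.329 and 0.261 FPKM in HFHG and 0.135, 0.262, 0.293 and 0.260 in low glucose, and low glucose replicate 1 was the lowest (exact two-sided permutation p = 0.171). Ect2, the exchange factor that Racgap1 recruits to activate RhoA, was 0.609, 0.717, 0.656 and 0.509 FPKM in HFHG and 0.746, 0.831, 0.704 and 0.694 in low glucose. Only HFHG replicate 2 reached the low glucose range, and Ect2 did not pass (log2 fold change -0.23, SE 0.13, adjusted p = 0.142) except after quantile normalization. Anln, which encodes the ring protein anillin, was 0.784, 0.993, 1.16 and 1.08 FPKM in HFHG and 1.21, 1.15, 1.13 and 0.930 in low glucose (log2 fold change -0.13, SE 0.13, adjusted p = 0.388). Prc1, which bundles the microtubules of the midzone, was 1.39, 1.09, 0.764 and 0.847 FPKM in HFHG and 0.847, 1.04, 0.990 and 0.746 in low glucose (log2 fold change 0.13, SE 0.17, adjusted p = 0.510). Kif20a, a kinesin of the midzone, was 1.27, 1.33, 1.64 and 1.46 FPKM in HFHG and 1.72, 1.5, 1.22 and 1.64 in low glucose (log2 fold change -0.078, SE 0.12, adjusted p = 0.585). Values of the last 3 genes were mixed between the media.

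Anaphase and exit from mitosis were represented by 3 genes. Pttg1 (NCBI gene 30939, chr11:43420250-43426251, minus strand), which encodes securin, the inhibitor of separase, was 1.31, 1.27, 1.34 and 1.17 FPKM in HFHG and 0.931, 0.923, 0.967 and 1.19 in low glucose. Low glucose replicate 4 reached the HFHG range and the other 3 lay below it, and Pttg1 rose 1.27-fold on 82 to 126 reads per library (log2 fold change 0.32, SE 0.11, adjusted p = 0.0201). The call was lost without HFHG replicate 3, low glucose replicate 1 or low glucose replicate 2 (adjusted p = 0.0540, 0.0529 and 0.0522), after quantile normalization (log2 fold change 0.18, adjusted p = 0.174) and when voom was run on recovered reads (0.0689). Cdc20, the activator of the anaphase-promoting complex, was 1.28, 1.49, 1.23 and 1.41 FPKM in HFHG and 1.27, 1.08, 1.25 and 1.48 in low glucose (log2 fold change 0.086, SE 0.11, adjusted p = 0.515). Ube2c, its ubiquitin-conjugating enzyme, was 3.48, 3.55, 2.78 and 3.14 FPKM in HFHG and 2.0, 3.93, 4.43 and 3.38 in low glucose, and low glucose replicate 1 was the lowest of the 8 and replicate 3 the highest (log2 fold change -0.033, SE 0.19, adjusted p = 0.887).

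Both genes of chromosome structure overlapped between the groups. Top2a, the topoisomerase that untangles sister chromatids, was 1.79, 2.05, 1.91 and 2.19 FPKM in HFHG and 2.23, 2.58, 2.32 and 2.12 in low glucose. It was lower in HFHG by a margin that did not pass (log2 fold change -0.21, SE 0.090, adjusted p = 0.0553), and it passed with median-ratio scaling (adjusted p = 0.0399), when voom was run on recovered reads (0.0355), after quantile normalization (0.00504), and without HFHG replicate 4 (0.0336) or low glucose replicate 4 (0.0345). Mki67, which encodes the Ki-67 proliferation antigen that coats mitotic chromosomes, was below the filter at 0.475, 0.451, 0.435 and 0.464 FPKM in HFHG and 0.393, 0.533, 0.370 and 0.340 in low glucose. The HFHG values were close together and lay above 3 of the low glucose libraries, while low glucose replicate 2 was the highest of the 8 (exact two-sided permutation p = 0.286).

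**Figure D2:**
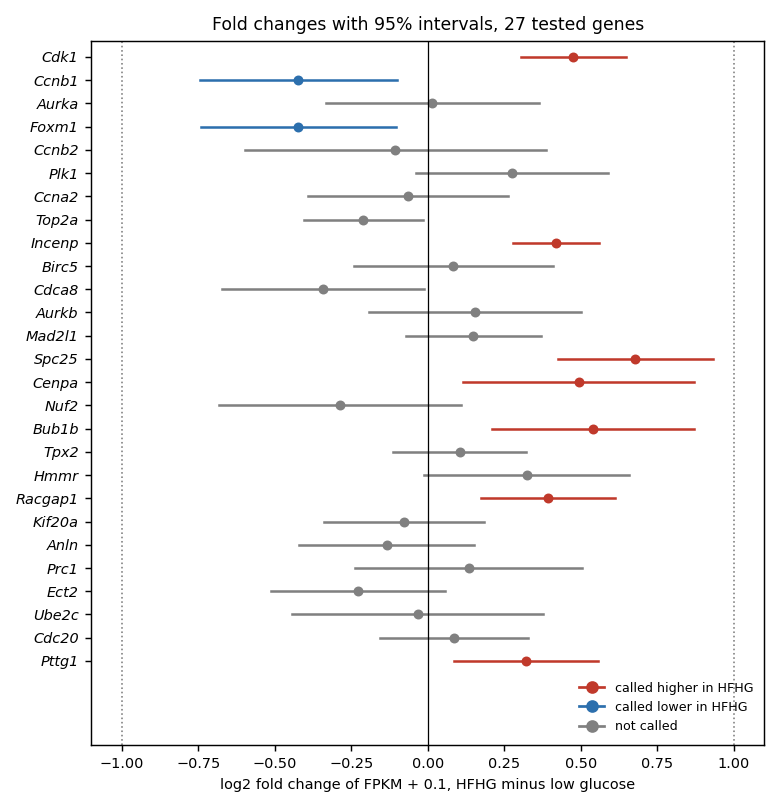
Log2 fold change of FPKM + 0.1 (HFHG minus low glucose) with its 95% interval for the 27 tested genes, in the order of the roles, red where called higher, blue where called lower and grey where not called. All intervals lay between the dotted lines at a 2-fold change, and the 7 red and 2 blue genes were spread over 5 of the 7 roles.

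Over the 13 genes below the filter, 7 had the higher mean log2 value in HFHG and 6 in low glucose. Groups did not overlap for 3 of them (Kif2c higher, Mybl2 and Ndc80 lower), and limma with no filter called 2 of the 13 (Kif2c and Mybl2), beside 40.6% of all 19301 genes in that fit. Over all 40, the groups were apart for 9 genes (22.5%), 6 higher and 3 lower in HFHG, beside 39.6% of all genes in the table. Groups did not overlap for 7635 of the 19301 genes, and 6936 of these were among the 11710 that passed the filter. Neither the 40.6% nor the 39.6% is therefore the share of genes as scarce as the 13. Several of the values may hold reads of a neighbour, since the kit was stranded but the strand setting of the counting was not given in the sources used here. On the opposite strand, exons overlapped for Ccna2 and Exosc9, Cdc20 and Elovl1, Plk1 and Gm44985, Kif4 and Pdzd11, Nusap1 and Oip5, Prc1 and Rccd1, Ube2c and Tnnc2, Kif20a and Cdc23, Cdca8 and 9930104L06Rik, and Cdc25c and Gm3550. Pseudogenes with the names Ccnb2-ps and Kif4-ps exist as well, and Gm23451 lies within Top2a.

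**Figure D3:**
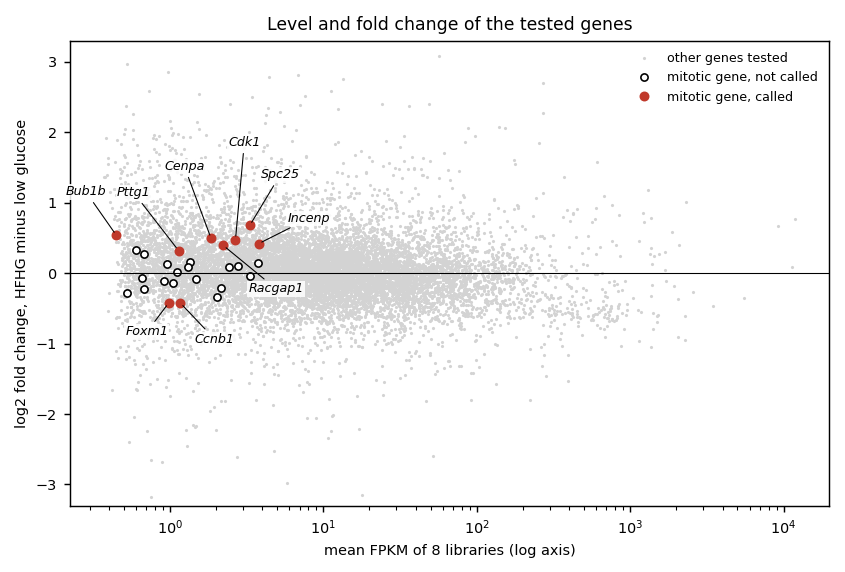
Log2 fold change (HFHG minus low glucose) against the mean FPKM of the 8 libraries (log axis) for all genes tested (grey), with the mitotic genes as open circles (not called) and red points (called). The mitotic genes lie at the left, between 0.447 and 3.79 FPKM, inside the cloud of other genes, and 9 other genes fall outside the axis limits of 3.3.

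The rest of the cell cycle was described with lists of genes, to place the 40 in their pathway. Of 86 other mitotic genes, 52 were tested, 18 were higher and 6 lower in HFHG, and their median log2 fold change was 0.11. The share called was 46.2%, beside 64.8% of all genes tested. The median level of the 86 was 0.660 FPKM. Among tested genes between 0.447 and 3.79 FPKM, the range of the 27, 51.7% were called, 17.5% lower and 34.2% higher. After quantile normalization the 18 higher and 6 lower became 9 and 9, and with the same sum per library they became 24 and 6. The 4 that rose past a fold of 2 were Psrc1, Ckap2, Kifc1 and Gtse1, and Gtse1 was named after its values had been seen. Psrc1, a spindle protein and p53 target, was 31.4 ± 0.922 FPKM in HFHG and 10.4 ± 0.254 in low glucose (log2 fold change 1.59, SE 0.036, adjusted p = 2.1e-12). Ckap2, a microtubule stabiliser of the spindle, was 6.23 ± 0.507 FPKM in HFHG and 2.12 ± 0.199 in low glucose (log2 fold change 1.51, SE 0.081, adjusted p = 5.29e-09). Kifc1, a minus-end kinesin, was 3.77 ± 0.0989 FPKM in HFHG and 1.68 ± 0.208 in low glucose (log2 fold change 1.13, SE 0.089, adjusted p = 1.9e-07). Gtse1, a microtubule-binding protein that also restrains p53, was 8.76 ± 0.505 FPKM in HFHG and 4.01 ± 0.273 in low glucose (log2 fold change 1.11, SE 0.063, adjusted p = 9.05e-09). Their fold changes exceeded that of each of the 40 mitotic genes. In the other direction, Cenpn, which reads the CENP-A nucleosome, had a log2 fold change of -0.62 (SE 0.14, adjusted p = 0.00213). Cks1b, a small subunit of cyclin-dependent kinases, had -0.60 (SE 0.074, adjusted p = 1.33e-05), and the condensin gene Ncapg2 had -0.43 (SE 0.10, adjusted p = 0.00307).

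The anaphase-promoting complex is the ligase that ends mitosis. All 15 of its genes were tested, 5 were higher and 4 lower (4 and 5 after quantile normalization), a share of 60% that lies near the 64.8% of all genes tested, and the median log2 fold change was -0.0081. Subunits with the largest increases were Cdc16 (log2 fold change 0.45, SE 0.034, adjusted p = 1.37e-07), Anapc2 (log2 fold change 0.34, SE 0.035, adjusted p = 2.35e-06) and Cdc23 (log2 fold change 0.31, SE 0.058, adjusted p = 0.000428), of which Cdc23 shares exonic sequence with Kif20a on the other strand. The largest decreases were in Anapc13 (log2 fold change -0.41, SE 0.091, adjusted p = 0.00166), Anapc11 (log2 fold change -0.39, SE 0.054, adjusted p = 4.34e-05) and Anapc16 (log2 fold change -0.35, SE 0.050, adjusted p = 5.08e-05). Regulators of cell cycle transcription, with 19 of 22 genes tested, gave 7 higher and 5 lower (63.2% called, also near that of all genes), with 7 and 7 after quantile normalization and 8 and 3 with the same sum per library. The pocket protein genes Rbl2 (log2 fold change 0.53, SE 0.062, adjusted p = 7.32e-06) and Rb1 (log2 fold change 0.45, SE 0.071, adjusted p = 0.000115) and the repressor E2f6 (log2 fold change 0.52, SE 0.037, adjusted p = 6.78e-08) rose. The NF-Y subunit gene Nfyc (log2 fold change -0.58, SE 0.075, adjusted p = 2.06e-05), Trp53 (log2 fold change -0.31, SE 0.037, adjusted p = 9.07e-06) and the MuvB subunit gene Rbbp4 (log2 fold change -0.25, SE 0.027, adjusted p = 4.06e-06) fell. A factor's mRNA does not give its activity, which was not measured.

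Of 42 genes of G1/S and DNA replication, 37 were tested. In HFHG 15 were lower and 5 higher, a called share of 54.1%, beside 30.8% lower and 34% higher among all genes tested, and the median of their log2 fold changes was -0.15. Rescaling to the same sum per library changed this to 13 and 9, and quantile normalization to 18 and 3. The helicase gene Mcm2 was 3.2 ± 0.0551 FPKM in HFHG and 6.22 ± 0.509 in low glucose (log2 fold change -0.94, SE 0.066, adjusted p = 6.71e-08). Cdt1, a loader of that helicase, was 2.36 ± 0.324 FPKM in HFHG and 4.58 ± 0.353 in low glucose (log2 fold change -0.93, SE 0.094, adjusted p = 2.22e-06). Orc1, of the origin recognition complex, was 0.392 ± 0.0749 FPKM in HFHG and 0.768 ± 0.0465 in low glucose (log2 fold change -0.83, SE 0.15, adjusted p = 0.000277). It reached the filter for testing only through its low glucose libraries, so the Orc1 call is no support for a direction. In contrast, the subunits of ribonucleotide reductase, Rrm2 (log2 fold change 0.61, SE 0.053, adjusted p = 5.26e-07) and Rrm1 (log2 fold change 0.42, SE 0.056, adjusted p = 2.88e-05), rose with the cyclin E gene Ccne1 (log2 fold change 0.42, SE 0.084, adjusted p = 0.00076). The difference between the mitotic and the replication list was itself not tested.

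Brakes of the cycle and G1 cyclins were much more abundant than the mitotic genes and mostly higher in HFHG. Of 18 genes 17 were tested, 11 rose and 5 fell, and the median log2 fold change was 0.37. The list mixes brakes with genes that promote the cycle, such as Cdk4, so its counts and median do not describe the brakes alone. The share called was 94.1%, beside 64.8% of all genes tested (30.8% lower and 34% higher). These genes had a median level of 53.5 FPKM, beside 8.04 for all genes tested. Cdkn1a, the p53-induced inhibitor p21 of cyclin-dependent kinases, was 507 ± 7.98 FPKM in HFHG and 273 ± 13.1 in low glucose (log2 fold change 0.89, SE 0.031, adjusted p = 8.66e-11). Btg2, an antiproliferative gene, was 27.8 ± 0.907 FPKM in HFHG and 10.3 ± 0.703 in low glucose (log2 fold change 1.42, SE 0.050, adjusted p = 9.08e-11), and Cdkn2c, the inhibitor p18, was 9.90 ± 0.900 FPKM in HFHG and 5.55 ± 0.432 in low glucose (log2 fold change 0.82, SE 0.074, adjusted p = 7.06e-07). The G1 kinase gene Cdk4 fell (log2 fold change -0.63, SE 0.039, adjusted p = 1.99e-08), as did Gadd45a (log2 fold change -0.38, SE 0.026, adjusted p = 5.01e-08) and Ccng2 (log2 fold change -0.21, SE 0.027, adjusted p = 2.05e-05). Ccnd1, the cyclin D1 gene, was 79.0 ± 0.971 FPKM in HFHG and 85.7 ± 1.27 in low glucose and fell slightly (log2 fold change -0.12, SE 0.024, adjusted p = 0.000742), a call that was lost after quantile normalization (adjusted p = 0.0539). In the same libraries 7 of the 27 tested mitotic genes were called higher, 2 lower (Ccnb1 and Foxm1) and 18 did not pass. Any link between Cdkn1a and these genes was not tested.

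**Figure D4:**
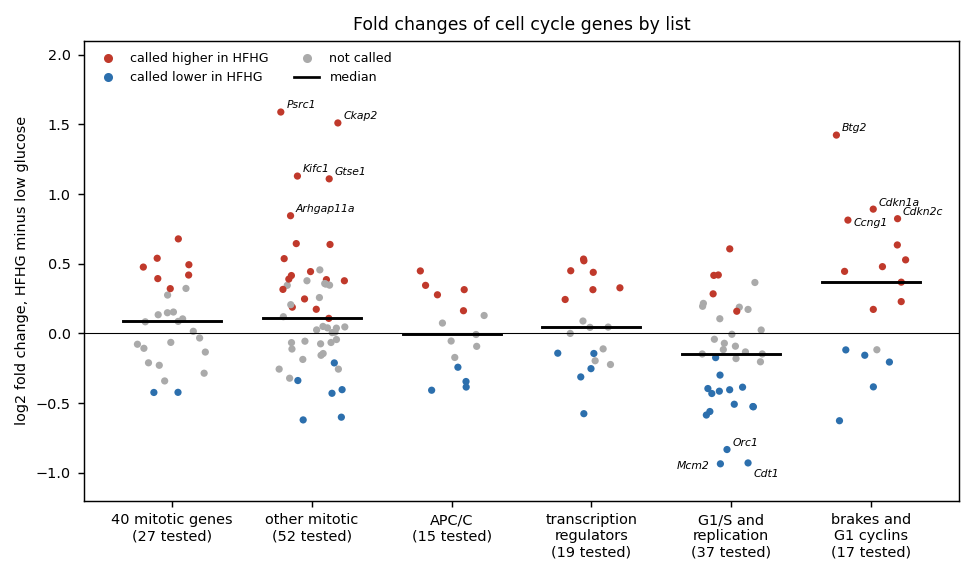
Log2 fold change (HFHG minus low glucose) of the tested genes of each list, 1 point per gene, red where called higher, blue where called lower and grey where not called, with a black bar at the median and the genes beyond 0.8 named. The 40 mitotic genes sat around a median of 0.086, the replication genes around -0.15 and the brakes and G1 cyclins around 0.37.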

How the data were processed

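Libraries of 8 TSC cultures (4 in HFHG, with 25.5 mM glucose and 300 µM palmitic acid, and 4 in low glucose) were grouped by the sample labels. The authors deposited FPKM values for 19301 genes without pooling replicates. Reads were aligned with HISAT2 2.1.0 to mm10 according to the submitters' processing notes, and the counting program, its strand setting and the annotation were not given in the sources used here. How reads of near-identical or overlapping genes were counted is therefore unknown.

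Genes with at least 0.5 FPKM in at least 4 libraries were compared on log2(FPKM + 0.1) with limma 3.58.1 (R 4.3.3, eBayes with an intensity trend), HFHG minus low glucose without covariates, with Benjamini-Hochberg adjustment over 11710 genes. Single genes below the filter were compared by permuting the libraries in all 70 ways (exact test, two-sided), whose smallest p-value is 0.0286. The fit and the recovery of reads were tested on simulated data. Whole reads were recovered from the FPKM for 19301 of 19301 genes (100%). The tolerance was 1e-06 reads at low counts and grew with the count at high ones. In the simulated data 99.757% of 2061 better-covered genes were recovered exactly. Precision is limited by 13 to 564 reads per value, and intervals cover the spread between libraries.

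Gene positions came from GENCODE M21 (GRCm38) and promoters from RefSeq (GRCm38.p6). The genes named in full are Cdk1 and Ccnb1, the 3 of each role with the largest log2 fold change, the 5 most abundant, those not called and those called against the majority. The remaining ones are described as well. From each other list, the 3 called genes with the largest fold change in each direction are named, with Cdkn1a and Ccnd1. Members, lists and tests were chosen with earlier results of these data known. There were 19 alternatives: 2 pseudocounts, 2 filters, 3 scalings, a replicate block, a robust eBayes, voom on recovered reads with and without the filter (chosen after seeing the data) and each of the 8 libraries left out. No set test was run.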

Additional observations from a re-analysis of the deposited data

Results flagged for a closer look

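In each medium the values of each of the 40 genes were searched for a single library far from the other 3, which gave 80 groups, and chance alone marks about 1 group in 20. A library was marked in 3 of them. Tpx2 was 2.29 FPKM in HFHG replicate 3 and 3.02 to 3.15 in the other 3 HFHG libraries. Foxm1 was 1.30 FPKM in low glucose replicate 1 and 1.07 to 1.09 in the rest of its group. Pttg1 was 1.19 FPKM in low glucose replicate 4 and 0.923 to 0.967 in the rest. Each of these marks lay in a different library, and their causes were not tested.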

How the results depend on the processing

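The number of mitotic genes called lower in HFHG, 2 in the main analysis, was 1 with no filter on low values, 1 with voom run on recovered reads unfiltered and 6 after quantile normalization, and it ranged from 1 to 3 when single libraries were left out. The number called higher, 7, was 4 after quantile normalization and ranged from 6 to 7 over the libraries left out. With voom on recovered reads and the filter kept, 7785 of all 11710 genes (66.5%) were called, 3 mitotic genes lower and 6 higher. No mitotic gene passed a fold of 2 under any of the 19 alternatives. Of 505 values of single genes under the alternatives, 452 kept their direction and their side of the threshold, 21 lost the call, 13 gained one and 19 changed sign, all of them uncalled genes near 0. Aurka became -0.00041 (log2 fold change) with median-ratio scaling and -0.13 after quantile normalization, where Birc5 became -0.029, Cdc20 -0.034, Tpx2 -0.0077 and Prc1 -0.025. Ube2c became 0.024 with the same sum per library. With single libraries left out, the log2 fold change ran from -0.15 to 0.037 for Ccna2, from -0.31 to 0.096 for Ccnb2, from -0.070 to 0.16 for Aurka, from -0.091 to 0.19 for Birc5, from -0.013 to 0.25 for Prc1 and from -0.26 to 0.10 for Ube2c. The cause was not tested. Quantile normalization moved the median log2 fold change of the 27 tested genes from 0.086 to -0.029 and that of all genes tested from 0.017 to -0.022.

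Replicate numbers are shared by the groups, but libraries with the same number did not deviate together (correlations -0.021, -0.0096, -0.0056 and -0.074), so the numbers were not taken to pair the cultures. With a replicate block, 3 genes were lower (Cdca8 in addition to Ccnb1 and Foxm1) and 7 higher. Few reads stood behind most values, and the part of depth was not separated from the spread between cultures. A gene that did not pass may still have changed within its stated interval.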
